A study of Mus musculus with 26 samples.

Results

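The 8 arrays titled ES13 to ES20 were examined in the order of their titles, out of 26 mouse samples measured on the Affymetrix Mouse Exon 1.0 ST array. The array carries several probe sets for each gene. ES13 and ES14 are labelled with strain 129S2/SvPas, and ES15 to ES20 with strain C57BL/6. The tissue label of each sample reads "embyonic Body cell" with the number of its title, taken here to mean embryoid body, and the source of the whole set is abbreviated to ES and EB. No label gives a day of culture, an age, a treatment, a cell line or clone, or feeder cells, and nothing says that the samples came from separate cultures. The title order is therefore not a recorded time. The words early and late below mean low and high title numbers.

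Genes were selected on 3 measures taken from these same 8 arrays: the Spearman correlation of the gene's value with the title number, the range between its highest and lowest array, and the array of its peak. A gene value was the median log2 signal over the brighter part of the gene's probe sets, and 18280 genes with at least 4 probe sets had one. A gene was called falling or rising when its range was at least 2 log2 units and its correlation lay beyond 0.8 in that direction. Among the remaining genes with that range, a gene was called middle-peaked when it was highest on one of ES14 to ES19 and at least 1 log2 unit above both ES13 and ES20, and middle-low in the mirror case. There were 121 falling genes (0.662% of all genes), 567 rising genes (3.1%), 158 middle-peaked genes (0.864%) and 32 middle-low genes (0.175%). A range of at least 2 was reached by 1105 genes (6.04%). These numbers describe how the genes were chosen and carry no test. Each title is a single array, so no value below has a replicate error. The spread given is over a gene's probe sets, which read the same RNA sample.

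Embryoid bodies are aggregates of embryonic stem cells that differentiate in culture into a mixture of cell types, with no single defining marker. In the embryo, the primitive streak forms mesoderm under Wnt, Nodal and BMP signals. Part of that mesoderm gives the first blood, made up of primitive red cells with embryonic globins, megakaryocytes and macrophages, together with endothelium. Other mesoderm gives mesenchyme, the loose connective cells that lay down collagen matrix.

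The 5 marker genes named for the order were highest on ES13 (Mixl1), ES16 (Hbb-bh1), ES17 (Pf4) and ES20 (Dcn and Rarb). Mixl1, a homeobox gene of the primitive streak, had log2 values of 10.95, 8.93, 6.80, 6.26, 5.65, 5.54, 6.07 and 5.75 from ES13 to ES20. It was high on ES13 and ES14 and between 5.54 and 6.80 on the other 6 arrays. Hbb-bh1, an embryonic beta-like globin, had 7.10, 10.67, 12.57, 12.67, 12.13, 11.61, 10.80 and 9.74, highest on ES16. Pf4, the platelet factor stored in megakaryocyte granules, had 5.39, 5.46, 7.16, 10.05, 11.80, 11.72, 11.57 and 11.09, highest on ES17. The globin had thus passed the middle of its range on ES14 and Pf4 on ES16. Dcn, which encodes the collagen-binding proteoglycan decorin, had 4.22, 4.08, 4.35, 7.36, 8.20, 9.50, 10.12 and 10.51. Rarb, the retinoic acid receptor beta gene, had 5.08, 5.37, 6.60, 7.20, 8.32, 9.86, 9.92 and 10.29, and each of its 7 steps was upward. Both were highest on ES20, and Dcn stayed between 4.08 and 4.35 on ES13 to ES15 before it changed.

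**Figure D1:**
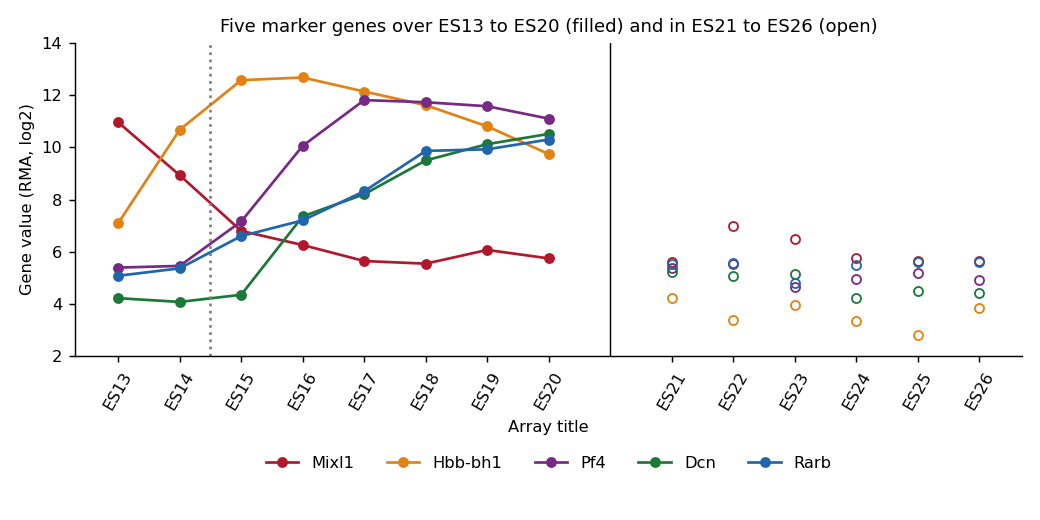
Gene values (RMA, log2) of the 5 marker genes on each array; filled points joined by lines are ES13 to ES20 in title order, open points are ES21 to ES26, and the dotted line marks the change of strain label between ES14 and ES15. Mixl1 is highest on ES13, Hbb-bh1 on ES16, Pf4 on ES17, and Dcn and Rarb on ES20.

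The probe sets of these markers differed in the same direction between the gene's highest and lowest array in 5 of 5 for Mixl1 (mean difference 5.71 ± 1.49 log2 units, SD over probe sets), 7 of 7 for Hbb-bh1 (5.83 ± 0.80) and 6 of 6 for Pf4 (5.53 ± 1.84). For Dcn it was 17 of 19 (3.66 ± 3.21), and for Rarb 11 of 11 (5.02 ± 1.41). Here and below, both arrays were picked by the brighter part of these same probe sets, so much of the agreement is given by that choice. The 10 leading genes of each class were also named only where at least 0.75 of the probe sets agreed. The strain label changes inside the run, so the order was also read over ES15 to ES20 alone, which all carry C57BL/6. There the Spearman correlation with the title number was 1.00 for Dcn and for Rarb, 0.43 for Pf4, -0.54 for Mixl1 and -0.94 for Hbb-bh1. Over all 8 arrays it was 0.98, 1.00, 0.76, -0.81 and 0.048, so Pf4 falls in no class. Mixl1 was already lower on ES14 (8.93) than on ES13 (10.95), both labelled 129S2/SvPas. In the step from ES14 to ES15 (6.80), title order and strain label cannot be told apart.

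The promoters of Cyp26a1, a falling gene for the enzyme that degrades retinoic acid, and of Rarb are shown because both hold a long shared motif while their levels run in opposite directions. Both windows are the 150 bases upstream of the RefSeq gene start, build GRCm38.p6, printed 5′ to 3′ on the gene's strand. The Cyp26a1 window is chr19:37697658-37697807 on the plus strand and the Rarb window chr14:16575477-16575626 on the minus strand. Capitals mark a direct repeat on either strand, the letters GTTCA and AGTTCA with any 5 bases between them.
Cyp26a1: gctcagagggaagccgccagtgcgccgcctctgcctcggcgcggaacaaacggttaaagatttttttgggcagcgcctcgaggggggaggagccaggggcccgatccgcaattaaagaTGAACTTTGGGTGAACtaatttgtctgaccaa
Rarb: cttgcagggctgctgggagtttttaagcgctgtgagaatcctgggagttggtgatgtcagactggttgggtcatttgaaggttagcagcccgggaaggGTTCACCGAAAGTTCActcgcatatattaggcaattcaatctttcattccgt
The repeat lies 17 to 32 bases upstream of the Cyp26a1 start, on the opposite strand to the gene, and 37 to 52 bases upstream of the Rarb start. In the 250 bases upstream of all 32851 starts, the motif was found in 9 (0.0274%). Of the genes with a measured value in that set, Cyp26a1 was falling, Rarb rising, Blvrb, for biliverdin reductase B, middle-peaked, and Tnfsf13b, for a B cell survival factor, in no class. A match describes letters only. Cyp26a1 and Rarb were shown for holding the motif, and the search was made after values were seen. Their matches were therefore given by that choice, and the low share over all starts says nothing about either gene. No window is shown for Mixl1, Hbb-bh1 and Dcn.

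Neighbouring titles were the most alike arrays. The nearest of all 26 arrays to each of ES13 to ES20, by Pearson correlation over the 18280 gene values, was an array with an adjacent title. The mean correlation was 0.987 for adjacent titles, 0.963 for titles 3 apart, 0.937 for titles 5 apart and 0.920 for ES13 against ES20. The pair on either side of the change of strain label, ES14 and ES15, correlated at 0.984, between ES13 with ES14 at 0.982 and ES15 with ES16 at 0.987. These are correlations across genes, which are not independent, and are given as a description. The first principal component of the 8 arrays held 63.8% of the variance, and its loadings were in title order without exception.

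**Figure D2:**
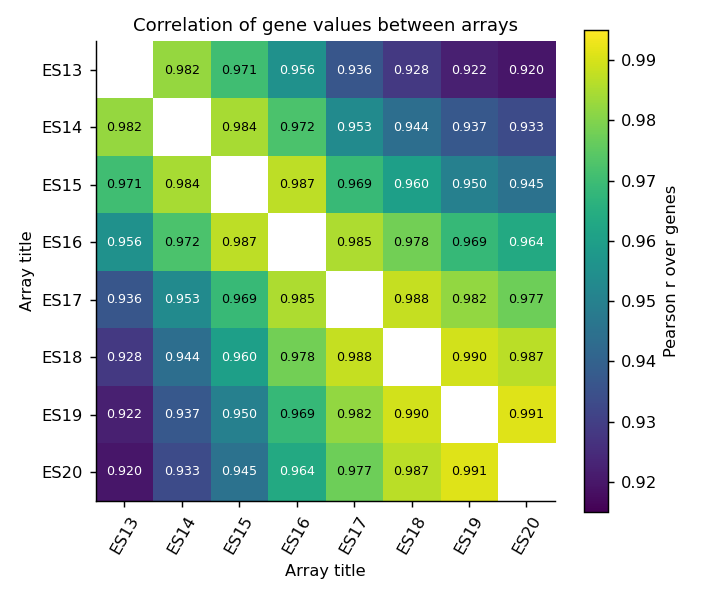
Pearson correlation over 18280 gene values between each pair of the 8 arrays, in title order on both axes, with the color scale from 0.915 to 0.995. The highest values lie next to the empty diagonal, and the lowest, 0.920, is between ES13 and ES20.

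The steps between adjacent titles were not of equal size. Between ES13 and ES14, 223 genes were at least 1 log2 unit higher and 286 at least 1 log2 unit lower. Between ES14 and ES15 the counts were 319 higher and 80 lower, then 260 and 51, 243 and 85, and 119 and 78 for the next steps. The last steps held 80 higher and 63 lower (ES18 to ES19) and 50 higher and 45 lower (ES19 to ES20). More genes were lower than higher in the first step alone. The array median of gene values lay between 7.17 and 7.47, a spread of 0.30 log2 units, and was lowest on ES13 and ES14. Centring each array on that median gave 211 falling and 442 rising genes, so that rising genes made up 67.7% of the 2 classes in place of 82.4%, and quantile normalization gave 157 and 524 (76.9%). The part of array scaling in the balance of the 2 classes was not tested.

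The classes filled different stretches of the run. Of the falling genes, 85 were highest on ES13, 27 on ES14 and 9 on ES15. They first came to or below the middle of their range on ES14 in 11 genes, on ES15 in 25, on ES16 in 26, on ES17 in 47 and on ES18 in 12. The middle-peaked genes were highest on ES16 in 67 and on ES17 in 72, with 3 on ES14, 9 on ES15 and 7 on ES18. Of the rising genes, 194 first reached the middle of their range on ES16 and 222 on ES17, and 334 were highest on ES20. Most rising genes thus passed the middle of their range on the arrays where most middle-peaked genes were highest. By ES20, 98 of the 158 middle-peaked genes were back at or below the middle of their range.

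**Figure D3:**
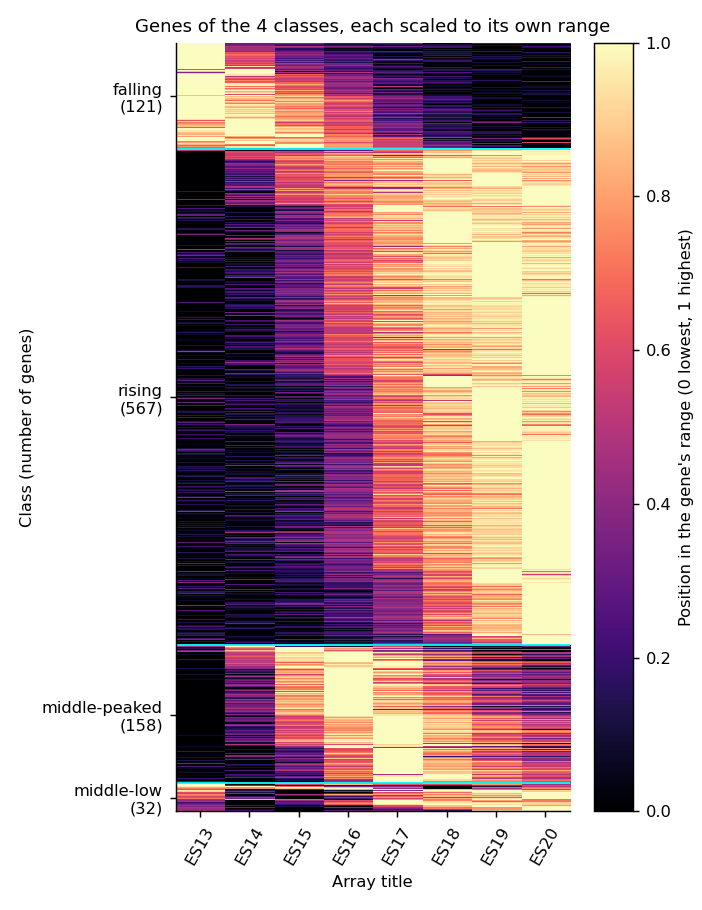
The 878 genes of the 4 classes (rows, number of genes in brackets) on the 8 arrays in title order (columns), each gene scaled from its lowest value (0) to its highest (1) and sorted within its class by the array at which it crosses the middle of its range. Falling genes are brightest on ES13 to ES15, middle-peaked genes on ES16 and ES17, and rising genes from ES17 on.

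**Figure D4:**
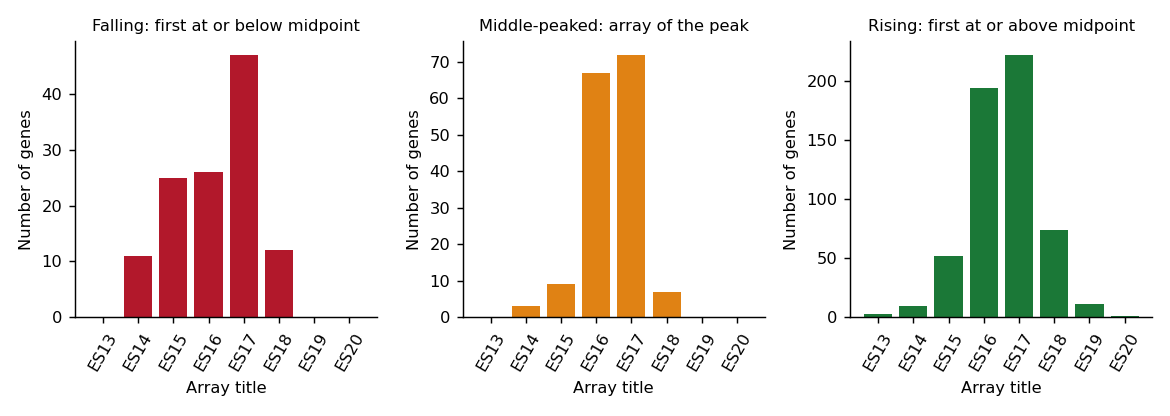
Number of genes by array title, on separate vertical scales: falling genes by the first array at or below the middle of their range after the peak, middle-peaked genes by the array of their peak, and rising genes by the first array at or above the middle of their range. The tallest bars are 47 falling genes on ES17, 72 middle-peaked genes on ES17 and 222 rising genes on ES17.

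Within ES15 to ES20 alone, 68 genes (0.372%) were falling, 311 (1.7%) rising, 28 (0.153%) middle-peaked and 6 (0.0328%) middle-low. Of the genes of the full run, 28 falling, 275 rising, 27 middle-peaked and 3 middle-low genes were in the same class there. The sign of the correlation over ES15 to ES20 was that of the full run in 121 of 121 falling and 567 of 567 rising genes, but these arrays are part of the run that chose them. The dimmer probe sets, which the gene value does not use, gave the same sign in 118 of 121 falling and 561 of 567 rising genes. By the full class rules, 69 of these falling and 308 of these rising genes kept their class with the dimmer probe sets. These probe sets were hybridized with the same RNA on the same array.

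Of the 10 falling genes of widest range, 5 were on the primitive streak list (Mixl1, Cyp26a1, Eomes, Lhx1 and T). In bulk RNA, fewer cells of a type and less RNA per cell cannot be told apart, here and in all that follows. Cyp26a1 had log2 values of 10.74, 9.22, 7.77, 7.03, 5.70, 6.03, 5.98 and 5.58 from ES13 to ES20. Eomes, a T-box factor of mesendoderm, had 10.50, 8.67, 7.33, 6.98, 6.48, 5.84, 6.51 and 6.10. T, which encodes brachyury, had 11.79, 9.81, 8.90, 8.24, 7.98, 8.14, 8.06 and 8.01. All 3 were highest on ES13 and lower on each array up to ES17, with little order after that. The probe sets differed in the same direction in 9 of 9 for Cyp26a1 (4.16 ± 1.63 log2 units, SD over probe sets), 20 of 20 for Eomes (3.65 ± 2.00) and 12 of 12 for T (4.62 ± 2.02). Lhx1, a LIM homeobox gene of streak-derived mesoderm, went from 9.33 on ES13 to 6.89 on ES14 and 5.37 on ES20.

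Of 30 listed genes of the streak and nascent mesoderm, 27 had a value and 7 were falling (Mixl1, T, Eomes, Wnt3, Lhx1, Cyp26a1 and Dll3); none was rising, middle-peaked or middle-low. The highest array was ES13 for 20 of the 27, and for 3080 of all 18280 genes. Their median range was 1.54 log2 units and their median correlation -0.52, beside 0.79 and 0.048 over all 18280 genes. The mean level of the list was 8.49 on ES13, 7.49 on ES14 and 7.13 on ES15, and between 6.95 and 6.99 on ES16 to ES20. Another 13 members, in no class, were also highest on ES13. Fst, the activin-binding follistatin, had 10.21 on ES13 and 7.33 on ES15 but 8.09 on ES20. Mesp2 and Mesp1, factors of early cardiac and paraxial mesoderm, had 7.53 and 7.12 on ES13 and at most 6.14 and 6.05 on any later array.

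Other falling genes came from the lists of pluripotency, epithelium and signalling, most of whose members were in no class. Of 23 genes of the naive pluripotency list, 5 were falling (Pou5f1, Tbx3, Dppa2, Sall4 and Lin28a) and 3 rising (Klf4, Dppa3 and Fbxo15), of which centring the arrays left 2. The other 15 were in no class, among them Nanog and Sox2 with ranges of 0.97 and 0.85. ES13 was the highest array for 10 of the 23 and ES20 for 7. The list mean was 8.29 on ES13, 7.70 on ES14 and 7.84 on ES20. Lin28a, an RNA-binding inhibitor of let-7 processing, went down at every step: 11.64, 11.57, 11.11, 9.96, 9.03, 8.79, 8.75 and 8.69. Dnmt3b, a de novo DNA methyltransferase of the epiblast, likewise had 11.23, 10.12, 9.77, 9.56, 9.24, 8.56, 8.18 and 8.14. Unlike Mixl1, these kept their order over ES15 to ES20, with a correlation of -1 for each. Klf4, a zinc-finger factor also found in differentiated epithelia and vessels, had 6.71, 6.81, 6.18, 7.03, 8.48, 8.75, 9.19 and 9.29. Of 12 primed epiblast genes with a value, Dnmt3b, Cdh1 and Epcam were falling and none was rising.

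Targets of Wnt, BMP and FGF signals held 5 falling genes (Lef1, Tcf7, Msx2, Spry4 and Etv4) and 1 rising gene (Id2) of 16 with a value. The other 10 were in no class. Of the 16, 8 had a correlation below 0 and 8 above 0. Centring the arrays left Id2 in no class. Msx2, a homeobox target of BMP, had 10.86, 10.81, 9.80, 9.24, 8.78, 8.21, 7.58 and 7.73. Fgf3, a ligand of the FGF family, had 8.76, 8.61, 7.95, 6.44, 5.79, 5.75, 5.76 and 5.16, and Foxh1, a partner of SMAD proteins in Nodal signalling, 9.80, 9.58, 8.90, 8.79, 7.34, 6.71, 6.43 and 6.54. These stayed high over ES13 to ES15 and crossed the middle of their range later than Mixl1, on ES16 for Fgf3 and ES17 for Foxh1. The other leading falling genes were Alox15, a lipoxygenase (10.23 on ES13 and 6.58 on ES20), Sprr2a, an epithelial envelope protein (9.93 and 6.57), and Dppa2 (8.99 and 5.79).

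Of 17 genes of the transition between epithelium and mesenchyme, 4 epithelial genes were falling (Cdh1, Epcam, Krt8 and Krt18), 1 gene was rising (Zeb1) and 12 were in no class. Cdh1, for the adhesion protein E-cadherin, had 10.82 on ES13 and 8.76 on ES20, and Krt8, a simple-epithelial keratin, had 11.36 on ES13, 11.84 on ES15 and 9.44 on ES20. Zeb1, a repressor of Cdh1, was higher at every step, from 7.41 on ES13 to 9.65 on ES20. All 19 of its probe sets were higher on ES20 than on ES13. A link between Zeb1 and Cdh1 was not tested. Other members ran differently. Twist1, a mesenchymal factor, was in no class and lowest on ES20. The epithelial genes Cldn6 and Esrp1 were also in no class. Cldn6 had 8.94 on ES13, 6.99 on ES14 and 8.57 on ES20, and Esrp1 8.76, 6.90 and 6.92.

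The 10 middle-peaked genes of widest range included red cell genes (Slc4a1, Hbb-bh1, Alas2 and Rhag) and platelet genes (Clec1b, Rgs18, Tubb1, Itgb3 and Alox12). The windows upstream of 3 red cell genes are shown because GATA1 and KLF1, the main red cell factors, are known to bind letters of the kind marked. Capitals mark TGATAA or AGATAA and CCACCC on either strand, the latter repeated with overlaps in Alas2, and TATAAA in Hba-x. From the RefSeq starts of GRCm38.p6, the windows are chr11:32276450-32276599 on the plus strand for Hba-x, chr7:103853208-103853377 on the minus strand for Hbb-y, and chrX:150547267-150547416 on the plus strand for Alas2. The Hbb-y window is 170 bases long and the others 150. Its TGATAA match lies 157 to 162 bases upstream, so a window of 150 bases would leave it out.
Hba-x: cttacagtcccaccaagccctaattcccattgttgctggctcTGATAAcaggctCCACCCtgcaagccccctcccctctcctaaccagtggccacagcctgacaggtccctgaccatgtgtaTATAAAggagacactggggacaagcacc
Hbb-y: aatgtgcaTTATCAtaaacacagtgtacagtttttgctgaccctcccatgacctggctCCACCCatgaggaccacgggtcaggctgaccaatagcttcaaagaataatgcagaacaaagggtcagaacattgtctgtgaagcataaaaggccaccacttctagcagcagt
Alas2: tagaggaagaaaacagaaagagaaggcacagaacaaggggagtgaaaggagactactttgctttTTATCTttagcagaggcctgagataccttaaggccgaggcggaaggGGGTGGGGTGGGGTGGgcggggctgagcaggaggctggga
Of 121 middle-peaked genes with a promoter in the table, 24 held TGATAA on either strand in the 250 bases upstream (19.8%), against 9.24% of rising, 4.44% of falling and 7.94% of all promoters. For AGATAA the shares were 19.0%, 8.53%, 11.1% and 9.99%, and for CCACCC 50.4%, 40.5%, 45 of 90 promoters and 28.1%. These shares have no test, and no match was read as a binding site.

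Hba-x and Hbb-y are the embryonic zeta-like and epsilon-like globins, and Alas2 makes the first intermediate of haem in red cells. Hba-x had log2 values of 8.66, 10.81, 12.70, 13.06, 12.83, 12.58, 11.88 and 10.66. Alas2 had 6.50, 8.30, 11.02, 11.69, 11.18, 10.95, 9.57 and 8.94. Hbb-y had 6.77, 11.44, 13.47, 13.84, 13.71, 13.66, 13.44 and 12.90. The 3 genes shared a peak on ES16, but Hbb-y was within 1 log2 unit of it on ES20 and fell in no class. Its probe sets differed by 7.05 ± 0.34 log2 units (SD over 4 probe sets) between ES16 and ES13.

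Of 26 listed genes of globins, haem and red cell proteins, 20 had a value, of which 11 were middle-peaked and 1 rising. ES16 was the highest array for 14 of the 20, and for 1454 of all 18280 genes. The list mean was 7.27 on ES13, 8.50 on ES14, 10.01 on ES15, 10.40 on ES16 and 8.95 on ES20. Slc4a1, the anion exchanger of the red cell membrane, had 6.05, 7.90, 10.88, 11.85, 11.40, 11.25, 10.10 and 9.98. The rising member was Hbb-b1, an adult beta globin, with 4.51, 6.54, 9.50, 10.29, 10.20, 10.20, 10.75 and 10.86. It was thus high on the last arrays, where Hbb-bh1 was lower than at its peak. Only 3 of 4 probe sets of Hbb-b1 differed in that direction, and near-identical adult globin copies make the value uncertain; the probe sets of Hbb-b2 and Hba-a1 were shared with other genes and gave none.

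Blood transcription factors were highest on ES13 in 1, ES14 in 3, ES15 in 3, ES16 in 5 and ES17 in 4 of the 16 with a value. Over all 18280 genes the same arrays were highest for 3080, 2022, 2939, 1454 and 1786. Gata1, the red cell and megakaryocyte GATA factor, had 6.59, 8.75, 10.08, 10.33, 9.60, 9.12, 8.33 and 8.15. Klf1, the erythroid Krüppel-like factor, had 6.31, 7.75, 9.59, 9.83, 8.72, 8.11, 7.34 and 6.93. Both were highest on ES16 and back below the middle of their range on ES19. Of 16 factors with a value, 5 were middle-peaked (Gata1, Klf1, Nfe2, Lyl1 and Ikzf1), 2 falling (Etv2 and Myb) and 9 in no class. Centring the arrays left 4 middle-peaked. Myb, needed for definitive blood formation, had 7.35, 8.17, 8.08, 7.38, 6.87, 6.25, 5.84 and 6.08.

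Megakaryocyte and platelet genes peaked 1 array later than red cell genes. ES17 was the highest array for 1786 of all 18280 genes and for 12 of the 15 listed genes with a value. Of these 15, 7 were middle-peaked, 2 rising, 1 middle-low and 5 in no class, and their median range was 3.66 log2 units. The list mean was 6.15 on ES13, 6.54 on ES14, 7.67 on ES15, 9.04 on ES16, 10.20 on ES17 and 9.30 on ES20. Itga2b, the alpha IIb integrin of the platelet fibrinogen receptor, had 7.25, 8.51, 9.45, 10.35, 11.45, 11.29, 10.80 and 10.37, with 39 of 39 probe sets in that direction (4.05 ± 1.21, SD over probe sets). Clec1b, the platelet lectin CLEC-2, had 3.35, 5.24, 7.19, 8.92, 9.77, 9.39, 8.65 and 7.95. Plek, the platelet and leukocyte protein pleckstrin, had 4.72, 6.63, 9.92, 11.40, 12.22, 12.00, 11.52 and 11.29, the widest range in the list (7.49), and was in no class. Ppbp, a platelet chemokine, stayed between 10.33 and 10.79 on ES17 to ES20 and counted as rising. Other middle-peaked leaders were Rgs18, a G protein regulator of platelets (9.83 on ES17), Tubb1, platelet beta tubulin (11.26), Itgb3, the partner of Itga2b (11.91), and Alox12, the platelet lipoxygenase (10.13). Rgs18 left the class under both other scalings, and Itgb3 under quantile normalization.

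Endothelial genes had smaller ranges and the same peak array. Of 21 with a value, 7 were middle-peaked and 13 were highest on ES17, with a median range of 1.54 log2 units. Over all 18280 genes, 1786 were highest on ES17. Centring the arrays left 4 middle-peaked and quantile normalization left 5. Emcn, an endothelial sialomucin, had 4.94, 4.94, 7.41, 8.70, 9.05, 8.79, 8.00 and 7.75, and Tie1, an endothelial receptor kinase, had 7.50 on ES13, 9.91 on ES17 and 8.33 on ES20. Cd93, a receptor of endothelium and myeloid cells, had 4.25 on ES13, 9.28 on ES17 and 8.12 on ES20.

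The 10 rising genes of widest range included matrix genes (Lum, Dcn and Postn), myeloid genes (C3ar1, Mpeg1 and Lilrb4a), Hbb-b1 and Ppbp, and also Prss35 and Gpr50. Lum, for the proteoglycan lumican, had log2 values of 3.04, 4.35, 4.38, 6.93, 8.08, 9.73, 10.83 and 11.01, the widest range of any rising gene (7.97). Its 5 probe sets differed by 6.46 ± 2.46 log2 units (SD) between ES20 and ES13. Postn, for the matrix protein periostin, had 6.47, 7.10, 8.69, 10.76, 11.60, 12.03, 12.16 and 12.11. Col3a1, fibrillar collagen III, had 7.42, 7.37, 8.50, 10.30, 11.26, 11.78, 12.12 and 12.28, with 59 of 59 probe sets in that direction (5.01 ± 1.45). Prss35, a secreted serine protease-like protein, had 5.03 on ES13 and 11.68 on ES20, and Gpr50, an orphan relative of the melatonin receptors, had 5.05 and 11.20. Postn and Col3a1 passed the middle of their range on ES16 and Lum on ES17. Col6a3, of the microfibrillar collagen VI, came later still, with 6.68, 6.57, 6.49, 6.77, 7.72, 9.27, 10.23 and 10.85, and passed it on ES18. Centring the arrays lowered its correlation from 0.90 to 0.79, outside the rising class.

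Of 29 mesenchyme and fibroblast genes with a value, 13 were rising, 1 middle-peaked (Prrx1), 1 middle-low (Bgn) and 14 in no class. Centring the arrays left 10 rising and none middle-peaked. ES20 was the highest array for 18 of the 29, and for 2710 of all 18280 genes. The list mean went from 7.43 on ES13 through 8.40 on ES16 to 9.78 on ES20. Not every member was late. Twist1, a mesenchymal bHLH factor, had 8.48, 9.39, 9.41, 9.50, 8.67, 8.49, 8.03 and 7.83, and Fn1, fibronectin, stayed between 12.40 and 12.78. Smooth muscle genes had 2 rising members of 12, Actg2 and Mylk. With centred arrays Mylk left the rising class and Acta2 entered it. Acta2, smooth muscle actin, had 9.37 on ES13, 11.65 on ES14 and 12.90 on ES18.

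Of 19 genes of retinoic acid receptors and metabolism with a value, 3 were rising (Rarb, Dhrs3 and Tgm2) and 16 in no class, and the median range was 0.71 log2 units. The list mean was 7.30, 7.42, 7.65, 7.72, 7.87, 7.97, 8.10 and 8.11. It includes Rarb and leaves out Cyp26a1, a falling gene that was counted in the streak list. From ES19 to ES20 the mean went from 8.096 to 8.106 and Rarb from 9.92 to 10.29. The direction of that last step thus depends on which genes the list holds. Dhrs3, a retinal reductase, had 6.60, 7.08, 7.76, 8.80, 9.97, 9.79, 9.80 and 10.00, and Tgm2, a transglutaminase, had 6.49, 7.46, 8.93, 9.07, 9.10, 9.07, 9.09 and 9.65. Rara, the alpha receptor gene, had a range of 0.71. Rdh10, which makes retinal from retinol, had 9.06 on ES13 and 10.77 on ES18, and Aldh1a2, the main embryonic retinoic acid synthase, 5.93 on ES13, 7.50 on ES15 and 6.28 on ES20.

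Many myeloid genes were also late. Of 21 macrophage and myeloid genes with a value, 10 were rising and 11 were in no class. ES20 was the highest array for 10 of the 21, and for 2710 of all 18280 genes. For another 6 of the 21 it was ES17, as for 1786 of all genes. Among these 6, Tyrobp had 9.59 on ES17 and 8.99 on ES20, and Laptm5 11.11 and 10.52. Lyz2, lysozyme of macrophages and neutrophils, had 4.35, 4.29, 5.37, 5.79, 6.60, 8.16, 9.33 and 9.94. Adgre1, the macrophage antigen F4/80, had 4.56, 4.30, 4.79, 6.57, 8.28, 8.64, 8.92 and 9.23, with 27 of 27 probe sets in that direction (4.12 ± 1.87, SD over probe sets). Csf1r, the receptor for macrophage colony-stimulating factor, had 6.00, 5.65, 6.49, 6.76, 8.43, 8.93, 8.97 and 9.02. The list mean went from 5.74 on ES13 to 8.07 on ES20, and was 10.09 to 10.81 on ES1 to ES12. The rising leaders C3ar1, a complement receptor (10.24 on ES20), Mpeg1, macrophage perforin (8.62), and Lilrb4a, an inhibitory receptor of myeloid cells (9.51), likewise had their highest value of the run on the last array. On ES1 to ES12, C3ar1 had 7.60 to 10.67, Mpeg1 9.00 to 11.81 and Lilrb4a 11.24 to 12.86, so C3ar1 alone reached that range within the run. The value of Lilrb4a may include its near copy.

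Extraembryonic endoderm genes, which mark the yolk sac lining, held 5 rising members of 18 with a value. Afp, alpha-fetoprotein, had 4.64, 4.71, 4.48, 5.55, 6.34, 7.58, 9.40 and 9.97. Ttr, transthyretin, had 5.90, 6.17, 7.41, 8.73, 8.09, 9.35, 10.43 and 9.61. Both were high on the last 3 arrays, and the highest array was ES19 or ES20 in 15 of the 18 genes. Over all 18280 genes, the highest array was ES19 in 2108 and ES20 in 2710. Dab2 left the rising class when arrays were centred, which left 4.

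**Figure D5:**
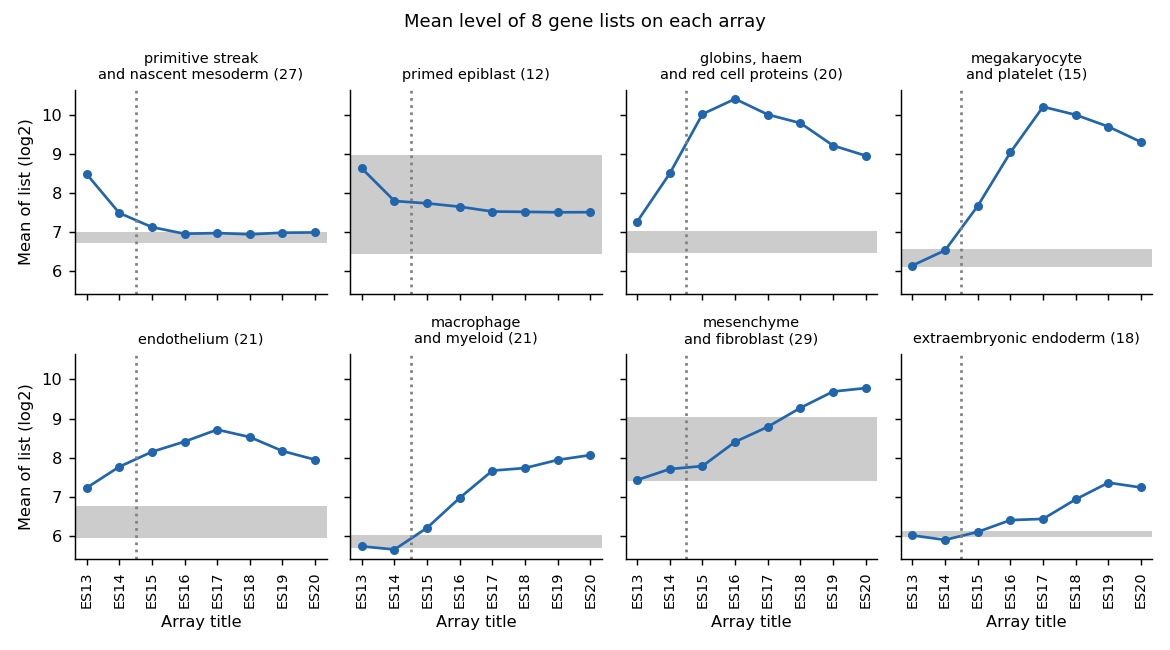
Mean log2 gene value of 8 lists (number of genes with a value in brackets) on ES13 to ES20 in title order; the gray band spans the list means of ES21 to ES26 and the dotted line marks the change of strain label. The streak list is highest on ES13 (8.49), the red cell list on ES16 (10.40), the platelet list on ES17 (10.20) and the mesenchyme list on ES20 (9.78).

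The genes whose pattern over the 8 arrays was most like each marker were ranked by Pearson correlation among the 1105 genes with a range of at least 2. For Mixl1 these were Eomes (0.990), T (0.987), Axin2 (0.977), Psmb10 (0.976) and Tdgf1 (0.976). For Hbb-bh1 they were Adgrg1 (0.984), Slc30a10 (0.982), Gata1 (0.979), Gypc (0.976) and Hba-x (0.975). For Pf4 they were Myo1f (0.998), Cd52 (0.996), Cyth4 (0.995), Neurl3 (0.995) and Ccl6 (0.995), and the first of them was rising while the other 4 fell in no class. For Dcn the list was Mpeg1 (0.998), Pag1 (0.996), Hgf (0.993), Emp3 (0.992) and Epha7 (0.992). For Rarb it was Rcn3 (0.997), Pld1 (0.996), P4ha2 (0.996), Nrep (0.996) and Zfhx4 (0.996). Near Mixl1 these included Axin2, a feedback inhibitor of Wnt signalling, and Tdgf1, a co-receptor for Nodal, and near Hbb-bh1 the red cell membrane gene Gypc. Myo1f, Cd52 and Ccl6, near Pf4, are genes of leukocytes, and P4ha2, near Rarb, is a collagen prolyl hydroxylase. The nearest pattern to the matrix gene Dcn was that of Mpeg1, a macrophage gene. The arrays are few and many genes change in title order, so high values are common and were not tested.

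The middle-low genes were lowest on an array between ES14 and ES19. Bgn, for the proteoglycan biglycan, had 8.31, 7.17, 6.91, 7.09, 7.69, 8.47, 9.44 and 10.19. Thbs1, for the matrix and platelet protein thrombospondin 1, had 10.19, 9.07, 10.20, 11.88, 12.72, 12.64, 12.66 and 12.40. Of the 32, 12 were lowest on ES14 and 13 on ES15, and 12 were highest on ES20. Clec4n, a lectin of myeloid cells, had the widest range, with 3.86 on ES13, 2.78 on ES14 and 8.26 on ES17.

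Some genes lay close to a limit of the classes. Trip13 was falling with a range of 2.01, while Shmt1 with a correlation of -1 and a range of 1.99 was not. Krt15 was rising with a range of 2.01, and Pdzrn3 with 1.99 was not. By the correlation, Pf4 and Laptm5 (0.76 each) and Tyrobp (0.79) missed the rising class, and Tdgf1 (-0.74) and Bmp4 (-0.79) missed the falling class in spite of ranges from 2.51 to 6.41. Both other scalings put Tyrobp among the rising genes.

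The other arrays of the series were set beside the run. ES1 to ES12 are labelled 129S2/SvPas and ES21 to ES26 C57BL/6, with no further detail. Xist was 12.00 to 12.43 on ES1 to ES12, 4.36 to 5.37 over the run and 4.49 to 5.98 on ES21 to ES26. Eif2s3y, a Y-linked gene, was 2.77 to 4.03, 9.48 to 10.04 and 7.87 to 9.73 on the same sets. In both genes ES1 to ES12 thus lay apart from the run, also from ES13 and ES14 of the same strain label. Mixl1 was 4.75 to 5.89 on ES1 to ES12 and 5.62 to 6.99 on ES21 to ES26, and Hbb-bh1 2.90 to 4.04 and 2.82 to 4.25. Dcn was 3.79 to 4.42 and 4.22 to 5.21, Rarb 4.86 to 5.62 and 4.79 to 5.63, and Pf4 7.18 to 9.54 and 4.66 to 5.52. ES21 to ES26 were not alike. The naive pluripotency list mean was 10.15 to 10.82 on ES21 to ES24, 6.68 on ES25 and 7.51 on ES26. The mesenchyme list mean was 7.41 to 8.41 on ES21 to ES24, 9.04 on ES25 and 8.85 on ES26. Of the 567 rising genes, 197 were at or above the middle of their range on all of ES1 to ES12 and 248 below it on all. On ES21 to ES26 the counts were 32 and 307, and the other 228 were mixed. Of the 158 middle-peaked genes, 138 were below the middle of their range on all of ES21 to ES26. On all of ES1 to ES12, 73 were below it and 44 at or above it. Rgs18, among the 44, had 9.51 to 11.02 there. Of the 121 falling genes, 41 were at or above it on all of ES21 to ES26, 32 below it on all and 48 mixed. On all of ES1 to ES12, 11 were at or above it and 71 below it. Being below it on every one of the 18 other arrays was the case for 160 rising, 66 middle-peaked and 28 falling genes. The difference between the run and the other arrays was not tested.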

How the data were processed

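RNA from each sample was amplified in 2 rounds and hybridized to 1 array. The values deposited by the authors are RMA log2 expression values per probe set, per the labels, made with Affymetrix Expression Console per the submitters' processing notes; its version, annotation and genome build are not given in the sources used here. Values ran from 0.831 to 15.6 over 631748 probe sets, and base 2 follows the usual output of RMA. GEO's platform annotation gave 1 gene symbol for 306069, several for 6067 (not used) and none for 319612. Of 21757 symbols, 17747 were current in RefSeq GRCm38.p6, 3949 were updated through a synonym and 61 were kept. RMA brings arrays to a common distribution, and array medians over ES13 to ES20 lay between 5.43 and 5.51. No 2 arrays were identical. Arrays give no read depth, and their number limits the precision.

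The gene value took a gene's probe sets ranked at or above the middle by mean over all 26 arrays. Named genes were the 10 of widest range in each class with at least 0.75 of probe sets in the same direction and no provisional name, the 5 markers, 5 genes most like each marker, and up to 5 (10 in 5 lists) of widest range from each of 21 lists, of whose 411 genes 379 had a value. Genes outside that rule, named after their values were seen, were Blvrb, Tnfsf13b, Fn1, Twist1, Csf1r, the class limits and members named to account for a count. Members, lists and rules were chosen with earlier results of these data known. The crossing of the range's middle, the principal components, the counts on other arrays and the promoter search were added after values were seen. The class rules were checked on simulated data. Alternatives were other probe set summaries, minimums, thresholds, scalings and arrays left out. Python 3.11.15, numpy 2.4.6, pandas 2.3.3, scipy 1.17.1 and matplotlib 3.10.9 were used.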

Additional observations from a re-analysis of the deposited data

Results flagged for a closer look

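In 26 checks for an array apart from the others of its strain label, 1 value stood out. On ES15, the mean of the primitive streak and nascent mesoderm list was 7.13, and the nearest of the other 5 arrays, ES16 to ES20, was at 6.99. That gap is 0.745 of the whole range over the 6 arrays, above Dixon's critical value of 0.625. The critical value, and the rate of about 1 such value in 20 checks by chance, hold for arrays in no order. Here ES15 is the first of the 6 titles, and the list mean was already going down before it (8.49 on ES13 and 7.49 on ES14). The list was also chosen with earlier results known, so no conclusion is drawn from the check.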

How the results depend on the processing

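With a range limit of 1 log2 unit there were 1186 falling, 1609 rising, 325 middle-peaked and 141 middle-low genes, and at 3 log2 units 24, 183, 71 and 5. With ES15 to ES20 alone there were 68, 311, 28 and 6. Leaving out each array in turn gave 69 to 116 falling, 449 to 598 rising, 96 to 153 middle-peaked and 10 to 34 middle-low genes. The counts moved by over 1.5 times without ES13 (69 falling, 103 middle-peaked, 10 middle-low), without ES14 (18 middle-low), without ES17 (104 middle-peaked) and without ES20 (96 middle-peaked). Falling genes numbered 78 with the mean over all probe sets, 80 at a correlation limit of 0.9 and 211 with centred arrays, of which 118 were among the 121. Membership moved more than some counts. With the median over all probe sets, 77 of the 121 falling and 422 of the 567 rising genes kept their class. So did 120 of the 158 middle-peaked and 10 of the 32 middle-low genes. With the dimmer probe sets these counts were 69, 308, 102 and 4. Middle-low genes numbered 9 with the mean over all probe sets, 57 with the dimmer probe sets, 50 without a minimum of probe sets, 17 at a limit of 0.7 and 20 among genes that reach the median gene value. The cause was not tested where fewer genes or arrays do not give it. Leaving out each array gave correlations of -0.89 to -0.71 for Mixl1, -0.43 to 0.32 for Hbb-bh1, 0.64 to 0.86 for Pf4, 0.96 to 1.00 for Dcn and 1.00 for Rarb. No paired analysis was possible because the labels give no replicate numbers and the order has no test.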

Other observations

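Of 19 cell cycle genes with a value, 15 had a correlation below 0 with the title number, and the median was -0.79. Over all 18280 genes, 8556 had a correlation below 0 and the median was 0.048. The median range of the 19 genes was 1.08 log2 units. Only Ccnd1, for cyclin D1, was in a class: it was falling, with 11.28 on ES13, 8.67 on ES17 and 8.37 on ES20. The mean of that list was 10.42 on ES13, 10.56 on ES15 and 9.88 on ES20. Of 16 genes of hypoxia and glycolysis, P4ha1, a collagen prolyl hydroxylase, and Bnip3, a mitophagy receptor, were rising, and P4ha1 was higher at every step from 8.93 to 11.27. Neural genes held 1 rising member of 13, Ncam1, for a neural cell adhesion molecule found in other tissues too, which had 7.32 on ES13 and 10.36 on ES20.

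Hox genes, which pattern the body axis, had a median range of 0.99 log2 units over 34 genes with a value. The middle-peaked member was Hoxc8, with 5.73, 8.56, 8.44, 7.64, 6.83, 6.06, 5.55 and 5.54 from ES13 to ES20, so that it was already high on ES14 and low again on the last arrays. Hoxc9 had 6.71 on ES13, 8.61 on ES14 and 7.38 on ES20, and Hoxc10 had 5.38 on ES13, 7.74 on ES16 and 6.85 on ES20.

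The extraembryonic mesoderm list held 2 falling, 2 rising and 1 middle-peaked gene of 12 with a value, and centring the arrays left 1 rising. Hand1, a bHLH factor of that tissue, had 11.27 on ES13, 11.81 on ES14 and 9.39 on ES20, and Vcam1, an adhesion receptor, had 5.07 on ES13 and 7.64 on ES20. Gata6, a factor of endoderm and heart, had 9.04 on ES13 and 10.70 on ES20, and left the rising class when arrays were centred.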
